A study of Tupaia belangeri with 2 samples.

Results

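GATA2, GATA3, FOG2, TFAP2A, TFAP2B and ST18 are 6 genes for transcription regulators, and their raw UMI counts (UMIs, unique molecular identifiers, each mark 1 captured transcript) were followed from precursor to GABA neuron in the embryonic brain of the tree shrew. They were taken by name from the 18543 gene names of the annotation. The names were selected on values measured in these cells, so every level below is a description, and no test is given for it. Cells were sequenced from the entire brain of each of 2 Tupaia belangeri embryos at 4 to 5 weeks after conception, with 1 10x 3′ library (v3 chemistry) per embryo. Both embryos stand in 1 group without any treatment, the labels give neither strain nor genotype, and dura and vessels were taken off before the tissue was dissociated. A spread between embryos therefore holds animal and library together, and the 2 cannot be told apart.

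Of 18926 barcodes, 17735 held at least 200 detected genes and were kept, 8408 of embryo 1 and 9327 of embryo 2. They carried 38192755 and 35785697 UMIs, with medians of 3539 and 3169 per cell. The embryos had 17 kept barcodes in common. Levels are given in CPM, the UMIs of a gene per 1e+06 UMIs of a cell group, as the mean ± SD of the embryos (n = 2) or per embryo. Intervals are exact 95% Poisson intervals for levels and exact 95% binomial intervals for shares of cells. Both cover counting error only.

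GATA2 and GATA3 are zinc-finger factors. In the embryonic midbrain of mice GATA2 selects the GABAergic fate. Postmitotic precursors there switch on GATA2 as they leave the ventricular zone, and GATA3 follows. FOG2 (also called ZFPM2) binds GATA proteins as a cofactor. TFAP2A and TFAP2B belong to the AP-2 family, best known from neural crest, and are also found in neurons of the dorsal midbrain and hindbrain. ST18 (also called MYT3) is a zinc-finger factor of the MYT1 family, whose members act in newly born neurons. GAD1 and GAD2 make GABA from glutamate and serve here as the readout of a GABA neuron.

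Each of the 6 names stood for 1 gene model. The annotation named the models evm.model.chr24.183 (GATA2), evm.model.chr2.211 (GATA3), evm.model.chr14.268 (FOG2), evm.model.chr31.77 (TFAP2A), evm.model.chr4.822 (TFAP2B) and evm.model.chr14.615 (ST18). The kept cells held 191 GATA2 UMIs, 601 GATA3, 1165 FOG2, 320 TFAP2A, 16529 TFAP2B and 2791 ST18 UMIs. GATA2 and TFAP2A therefore rest on few molecules, and their values carry wide intervals. Counts from the 3′ end depend on how well each model covers the end of its transcript, so levels are compared between cell groups and not between genes.

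The cells formed 18 clusters in a graph built without the 6 genes, and 14 of the clusters earned 1 of 11 class names from marker genes. The midbrain GABA neuron-like class joined 2 clusters and held 3057 cells, 974 or 11.6% of embryo 1 and 2083 or 22.3% of embryo 2. Of its 10 markers, GAD1, OTX2, LHX1 and LHX5 passed in both clusters and GAD2 and PAX7 in the larger one. TAL2 is not a name in the annotation, and SLC32A1, the vesicular GABA transporter, was at only 2.54 and 5.73 CPM in embryos 1 and 2. SOX14 and TAL1, which mark GABA neurons of the midbrain and its border with the thalamus, reached 21.5 ± 4.04 CPM and 20.5 ± 1.41 CPM. In the forebrain GABA neuron-like class they were at 0.568 ± 0.803 and 0.766 ± 0.682 CPM. SOX14 and TAL1 were found in too few cells to count for the naming. The label of a midbrain GABA neuron thus rested on 4 to 6 of the markers, and a whole-brain suspension gives no dissection by region.

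All 6 genes had their highest class mean in the midbrain GABA neuron-like class. GATA3 was the gene most restricted to it, with 68.7 CPM in embryo 1 and 76.6 in embryo 2, a mean of 72.7 ± 5.57, and 89.2% of all its UMIs. Every other class lay at or below 6.91 CPM of GATA3 in either embryo, and the step from the midbrain GABA class to the next was the one that exceeded both the embryos' spread and the counting intervals. FOG2 was at 97.1 and 136 CPM (mean 116 ± 27.3) with 76.6% of its UMIs in the class, and its next named neuronal class, the cortical excitatory neuron-like cells, was at 10.5 ± 2.02 CPM. GATA2 was at 20.8 and 16.2 CPM (mean 18.5 ± 3.26) with 67.0% of its UMIs in the class, and the other classes lay below 4.5 CPM in each embryo, although the interval of the choroid plexus-like cells, with 1 UMI, overlapped that of the midbrain GABA class. The erythroid-like class, a lineage in which GATA2 is known from early progenitors, held 0 GATA2 UMIs in embryo 1 and 3 in embryo 2. Clusters without a class name stand outside this comparison. In an unnamed cluster of 1184 cells, tied between granule neuron and midbrain or thalamus excitatory markers, FOG2 was at 16.2 ± 8.40 CPM. GATA3 was at 5.90 ± 0.848 CPM there and GATA2 at 4.28 ± 1.45, from 19 UMIs.

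The AP-2 genes and ST18 were less confined. TFAP2A was at 28.4 and 22.3 CPM in the class (mean 25.4 ± 4.31) and at 10.5 and 6.83 CPM in the midbrain or thalamus excitatory neuron-like class, with no overlap between embryos or intervals. Microglia-like cells held it at 0 and 17.3 CPM, the latter from 5 UMIs. TFAP2B did not separate these classes. It stood at 994 and 1145 CPM in the midbrain GABA neuron-like class (mean 1070 ± 107) and at 1077 and 926 CPM in the excitatory class (mean 1002 ± 107), so the embryos overlapped. These classes held 48.0% and 36.4% of its UMIs. ST18 was at 175 and 167 CPM (mean 171 ± 5.99) in the midbrain GABA class, at 68.5 ± 8.51 in the forebrain GABA class, 67.1 ± 1.39 in cortical excitatory and 48.8 ± 2.99 in the midbrain or thalamus excitatory class. The forebrain GABA and cortical classes overlapped between embryos, and the other neighbours in this order did not. GATA3, FOG2 and GATA2 thus marked the midbrain GABA class, whereas the name of a midbrain GABA factor covers only part of where TFAP2B and ST18 were counted.

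**Figure D1:**
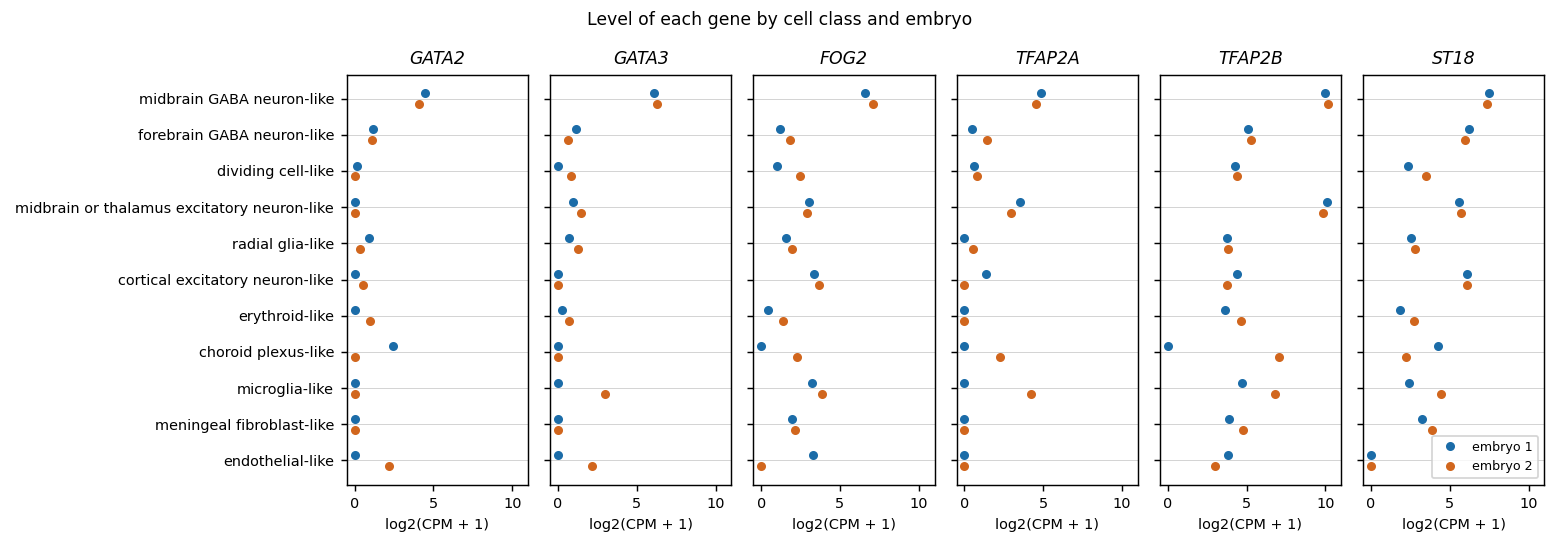
Level of each gene as log2(CPM + 1) on the horizontal axis in the 11 named cell classes, 1 point per embryo. GATA2, GATA3 and FOG2 have their highest points in the midbrain GABA neuron-like class, with the smallest gap to the other classes for GATA2. TFAP2B is as high in the midbrain or thalamus excitatory class (1070 ± 107 against 1002 ± 107 CPM), and ST18 is spread over 4 neuron classes.

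Levels in cells that should lack a gene were taken as a background, and whether free RNA or doublets made it was not tested. Erythroid-like cells, with a median of 12896 UMIs, held TFAP2B at 11.4 and 24.2 CPM, and 4.23% and 5.17% of them had a TFAP2B UMI. After each cell was thinned to 1000 UMIs these shares were 0.647% and 2.16%, against 29.6% and 30.2% in the midbrain GABA class. The 182 TFAP2B UMIs of erythroid-like cells came from 45 of 1013 cells, and 7 of these 45 also had the related gene TFAP2D. TFAP2B in radial glia-like cells, at 12.5 and 13.4 CPM, lay between the values of the 2 embryos in erythroid-like cells. HBB made up 870742 ± 5405 CPM of erythroid-like cells, which limits the comparison of CPM and thinned shares with other classes. In the small choroid plexus-like class TFAP2B was at 0 CPM in embryo 1 and 132 in embryo 2, and all 35 UMIs of embryo 2 came from 4.94% of 81 cells.

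To set the genes in the order of differentiation, the cells were divided more finely. Clusters with at least 2 of PAX3, PAX7 and OTX2 (midbrain patterning genes) at least 2-fold above all other cells were taken as 1 territory. This gave 8 groups of 327 to 1380 cells, which were ordered by the sum of GAD1 and GAD2. The order is a ranking of groups and not a lineage traced in time. Precursor groups 1 and 4 were dividing cells, with summed dividing-cell markers of 20192 and 16404 CPM in the first and 13700 and 11169 CPM in the last of the 4 precursor groups in embryos 1 and 2. Precursor group 2 carried radial glia markers at 2030 and 2034 CPM, and the other precursor groups carried them at 1433 to 1883 CPM. Precursor group 3 (429 cells) had the highest level of neurogenic markers, 498 and 551 CPM, among them DLL3, a Notch ligand of cells leaving the cycle, at 149 and 198 CPM. GAD1 and GAD2 summed to 17.4 to 44.4 CPM in these 4 groups. GAD2 alone was at 23.2 ± 8.58 CPM in erythroid-like, 29.7 ± 3.74 in radial glia-like and 44.4 ± 10.5 in cortical excitatory neuron-like cells. The precursor sums thus lay near levels of cells that are not GABA neurons, and their order does not rank the precursor groups by differentiation. In GABA groups 1 to 4 the sum was 360, 1399, 1736 and 2058 CPM. GABA group 1 (387 cells) was therefore the earliest of the GABA groups by this measure, and the neuron marker STMN2 was also lowest there, at 1293 and 1207 CPM against 2161 to 2812 in the later 3. NEFM, a neurofilament gene of the same list of neuron genes, went the other way, at 780 and 895 CPM in GABA group 1 against 86.0 and 77.6 over the later groups pooled.

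GATA2 was highest in GABA group 1. It was at 10.2 and 16.8 CPM in precursor group 3, at 55.1 and 39.6 in GABA group 1, at 17.6 and 18.3 in GABA group 2, at 9.64 and 8.74 in GABA group 3 and at 0 and 5.86 in GABA group 4. The means of the GABA groups were lower at each step, from 47.3 ± 10.9 CPM in group 1 to 2.93 ± 4.14 in group 4. The embryos of neighbouring GABA groups did not overlap. The Poisson intervals of GABA groups 1 and 2 lay apart within each embryo but overlapped across embryos. Those of the later neighbours overlapped within each embryo. Precursor groups 1, 2 and 4 held 4 GATA2 UMIs in all their cells, and group 4, a group of dividing cells, held 0. Its place between precursor group 3 and GABA group 1 rests on low GAD counts, so no drop of GATA2 before GABA group 1 is read from it.

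GATA3 was counted mainly in the GABA groups, up to the end of the order. Precursor groups 2 and 4 held 3 GATA3 UMIs each, and group 1 held 0. Precursor group 3 held 0 GATA3 UMIs in 429 cells, and the exact Poisson intervals reach up to 5.38 and 4.13 CPM in embryos 1 and 2. GABA group 1 already had 53.2 and 69.0 CPM, and the 3 later groups had 79.2 and 87.8, then 63.9 and 57.1, then 83.2 and 103 CPM. The range of these GABA groups was narrow, and GABA groups 4 and 2 as well as 1 and 3 overlapped between embryos. Precursor group 3 thus held 22 GATA2 UMIs and none of GATA3.

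FOG2 was higher at each later GABA group. It was at 4.37 and 2.24 CPM in precursor group 3, at 62.7 and 74.1 in GABA group 1, at 88.0 and 120 in group 2, at 104 and 159 in group 3 and at 149 and 177 in group 4. The means ran from 68.4 ± 8.07 to 163 ± 20.0 CPM. The embryos of GABA groups 2 and 3 and of groups 3 and 4 overlapped, while those of group 1 lay below group 2 and those of group 2 below group 4. In GABA groups 1 to 4 embryo 2 was above embryo 1 each time, by the most in group 3.

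TFAP2A followed GATA2 in outline. Precursor group 3 had 11.7 and 11.2 CPM, GABA group 1 had 51.3 and 37.0, group 2 had 39.6 and 35.4, group 3 had 15.7 and 13.4 and group 4 had 0 and 2.34. Groups 1 and 2 overlapped, and group 4 rested on 2 UMIs in 538 cells. TFAP2B was at 173 and 237 CPM in precursor group 3, where 17.5% and 17.1% of cells had a UMI of it. This precursor group also held EBF3, a marker of the midbrain or thalamus excitatory class, at 207 ± 38.8 CPM. Whether its TFAP2B counts belong to precursors of GABA or of excitatory neurons was not tested. TFAP2B stood at 894 and 940 CPM in GABA group 1, at 1232 and 1678 in group 2 and at 1211 and 1226 in group 3. In GABA group 4 it was at 71.3 and 213 CPM. The Poisson intervals of this last group lay apart from those of group 3 in both embryos, and those of precursor group 3 lay apart from GABA group 1. GABA group 4 was thus a GABA group with the highest GATA3 and FOG2 means and with little of either AP-2 gene.

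ST18 was highest in GABA group 1. It was at 36.4 and 65.0 CPM in precursor group 3 and at 421 and 472 CPM in GABA group 1, where 68.8% and 78.1% of cells had a UMI at a median depth of 3340 UMIs. GABA group 2 had 180 and 185 CPM, group 3 had 56.6 and 39.6, and group 4 had 98.1 and 104. Group 4 exceeded group 3 in both embryos, so the order of levels did not follow the order of the groups throughout. GATA2 and TFAP2A also had their highest means in GABA group 1.

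**Figure D2:**
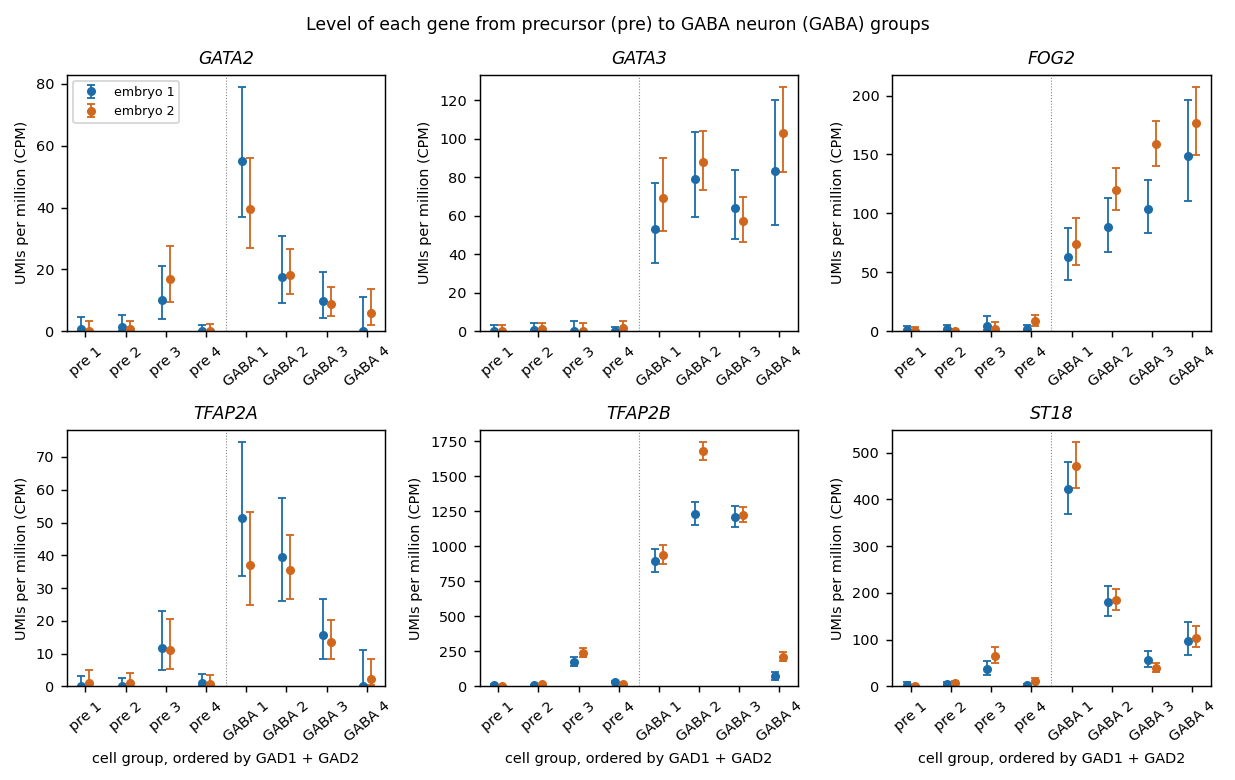
Level of each gene in CPM in 4 precursor (pre) and 4 GABA neuron (GABA) groups of the PAX3, PAX7 and OTX2 territory, ordered by GAD1 and GAD2. The order among the precursor groups rests on GAD levels near those of cells that are not GABA neurons. Points are embryos and bars exact 95% Poisson intervals. GATA2, TFAP2A and ST18 are highest in GABA group 1, GATA3 and FOG2 remain high to GABA group 4, and TFAP2B is at 1219 ± 10.4 CPM in GABA group 3 and at 142 ± 100 in group 4. TFAP2B has its highest mean in GABA group 2.

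The genes were also read along a score of single cells, although the cells scored were picked by the clusters of the territory. The 4251 cells of the territory outside the dividing groups were ranked by a score of 9 neuron and GABA genes minus 9 radial glia genes and cut into 8 bins of equal size. A bin is a range of the score and not a cell type, and 1132 cells lay within 5% of the score's SD of a bin edge. GATA2 had its highest mean in bin 4, 28.3 ± 6.71 CPM, with overlap of the embryos with bin 3, at 23.4 ± 6.28. It was at 6.39 ± 1.30 in bin 7 and 15.6 ± 3.46 in bin 8. GATA3 was at 1.78 ± 2.52 CPM in bin 2, at 46.9 ± 5.37 in bin 3 and at 80.0 ± 6.86 in bin 8. FOG2 was at 2.93 ± 1.63 in bin 2, at 126 ± 14.8 in bin 4 and at 109 ± 69.1 in bin 8, where embryo 1 had 60.2 and embryo 2 had 158 CPM. ST18 was highest in bin 3, at 219 ± 13.3 CPM, and was at 123 ± 25.6 in bin 8. TFAP2B was at 106 ± 36.3 in bin 2, at 1238 ± 34.5 in bin 4 and at 892 ± 185 in bin 8. TFAP2A was at 30.6 ± 3.38 in bin 4 and 24.9 ± 11.6 in bin 8. The low levels of GATA2, TFAP2A and TFAP2B in GABA group 4 were thus not seen at the end of the score, where bin 8 held 135 cells of that group, 267 of group 3 and 116 of group 2. The highest means of GATA2 and ST18 were lower here than in GABA group 1, whose 387 cells were spread over all 8 bins, with 144 in bin 3 and 91 in bin 4.

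**Figure D3:**
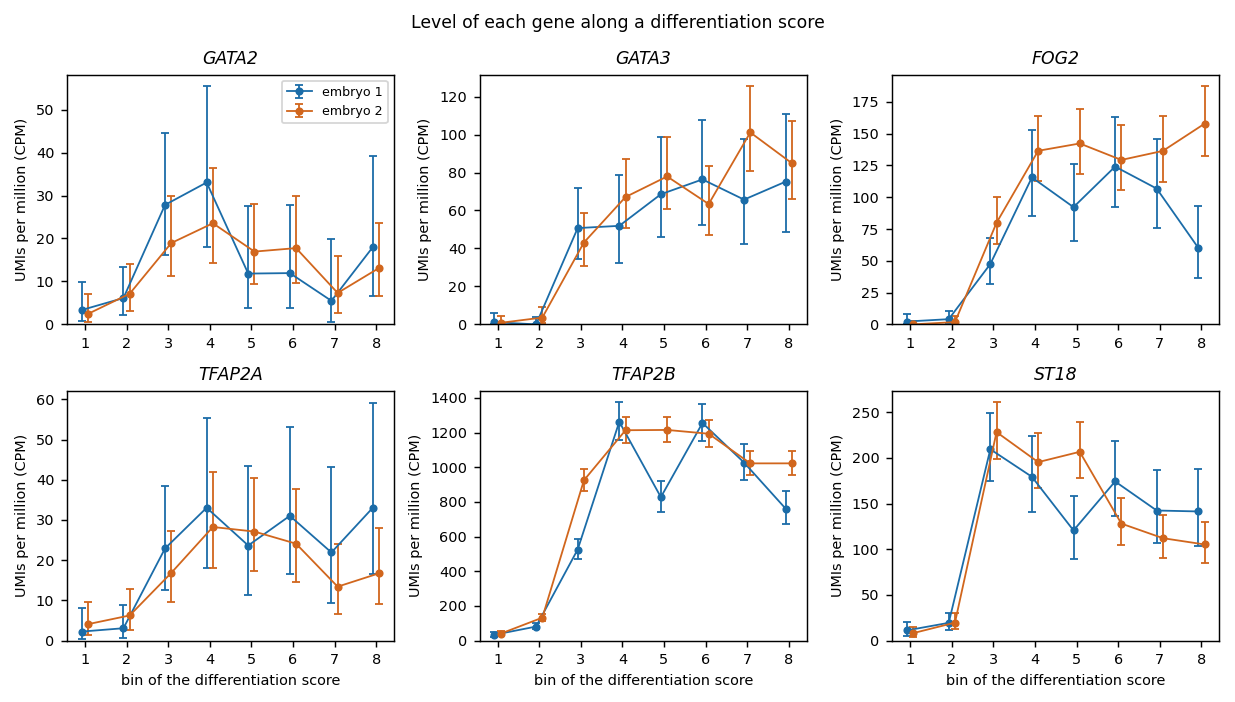
Level of each gene in CPM along 8 bins of a differentiation score (low to high), 1 line per embryo with exact 95% Poisson intervals. The mean of ST18 is highest in bin 3 and that of GATA2 in bin 4, where the GATA2 values overlap those of bin 3. GATA3 and FOG2 remain up to bin 8 except for a FOG2 value of 60.2 CPM in embryo 1.

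TFAP2B was unusual in how its counts were shared out among cells. In the midbrain GABA class 32.1% of cells of embryo 1 and 31.9% of embryo 2 had any TFAP2B UMI, and those cells held a median of 7 UMIs, up to 28 and 33. Of the positive cells 71.2% and 74.1% had at least 5 UMIs and 10.5% and 9.64% had 1. By contrast, 88.6% of the GATA2-positive cells had a single UMI in both embryos, and no cell reached 5 UMIs of GATA2, GATA3, FOG2 or TFAP2A in the class. Among the 57 other genes whose UMI total in the class differed by at most 25% from the 7936 of TFAP2B (the larger over the smaller), the share of positive cells ran from 74.4% to 93.8%, with a median of 84.2%. TFAP2B, at 32.0% over both embryos, was below all 57. GATA3, at 15.6%, and FOG2, at 23.9%, were close to the medians of genes of like total, 15.2% and 23.9%. ST18 at 23.0% was above 5 and below the rest of 360 such genes (median 31.0%).

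The same was seen in the midbrain or thalamus excitatory class, where 26.0% of cells were positive for TFAP2B with a median of 14 UMIs in each embryo. All 69 genes of like total there were detected in 51.2% to 98.1% of cells. TFAP2B was therefore counted in some cells in number and in the rest hardly at all, in a GABA and a glutamate class alike. The share of TFAP2B-positive cells was 40.3% and 43.8% in GABA group 1, 44.0% and 46.6% in group 2, 31.6% and 30.7% in group 3, and 6.37% and 7.09% in group 4. GABA group 4 thus had a lower share of positive cells than group 3 at a higher median depth (2194 against 1706.5 UMIs). Its positive cells held medians of 1 and 2 UMIs. At least 5 UMIs were held by 1 of 10 positive cells in embryo 1 and by 12 of 27 in embryo 2.

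**Figure D4:**
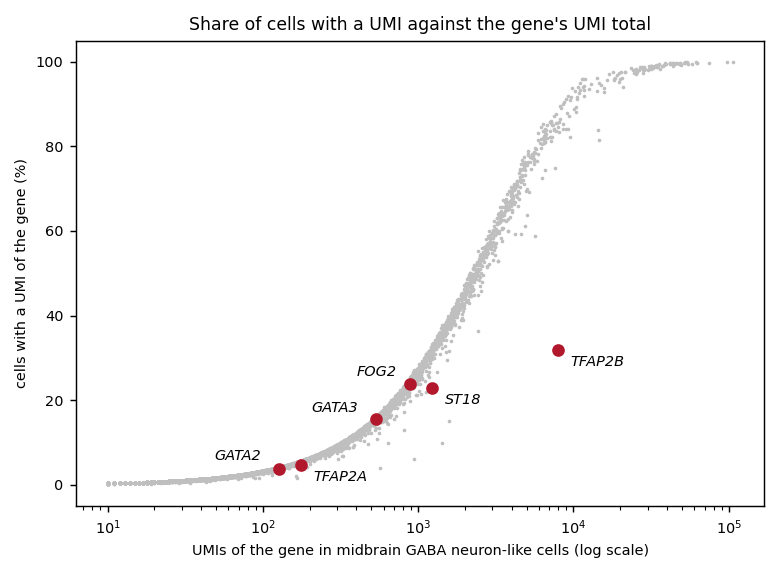
Share of midbrain GABA neuron-like cells with a UMI of a gene (vertical axis, percent) against the gene's UMIs in these cells (horizontal axis, log scale), 1 grey point per gene with at least 10 UMIs and the 6 genes in red. TFAP2B, at 32.0% of cells with 7936 UMIs, lies far under the band of the other genes, and GATA2, GATA3, FOG2 and TFAP2A lie on it.

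Cells with TFAP2A were cells with TFAP2B. Among the 2857 cells of the class with at least 1000 UMIs, 147 had a TFAP2A UMI, and 143 of these also had TFAP2B, or 97.3% (interval 93.2% to 99.3%), against 33.4% of all these cells. The share was 94.5% in embryo 1 and 98.9% in embryo 2. Positive cells were deeper, with a median of 3017 UMIs against 2281. With each cell thinned to 1000 UMIs the share was 91.5% (54 of 59 cells) against 30.0% of all. It held within GABA groups 1, 2 and 3, with 42 of 42, 65 of 68 and 33 of 34 cells. In the midbrain or thalamus excitatory class it was 42 of 43. Conversely, 143 of the 954 TFAP2B-positive GABA cells had a TFAP2A UMI, which at a median of 1 UMI per positive cell limits what can be said of the others.

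Pairs with GATA3 and FOG2 showed no such tie. TFAP2B was present in 35.1% of GATA3-positive cells (interval 30.7% to 39.6%) and in 34.6% of FOG2-positive cells (31.0% to 38.2%), next to 33.4% of all. FOG2 was present in 25.7% of GATA3-positive cells (21.8% to 30.0%) next to 24.5% of all, so a partnership of GATA3 and FOG2 within single cells was not detectable at this depth. ST18 was found in 52.7% of GATA2-positive cells (43.0% to 62.2%) next to 24.3% of all cells of the class, but within GABA group 1 the shares were 80.0% and 75.9%. GATA2-positive cells were also deeper, with a median of 3173 UMIs, and after thinning ST18 was in 7 of 45 of them or 15.6% (6.49% to 29.5%), next to 12.1% of all. Of all cells in the class, 66.3% and 65.8% in embryos 1 and 2 had a UMI of at least 1 of the 6 genes, against 13.6% and 16.9% of other cells.

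Since TFAP2B split GABA groups 1 to 3, the 938 cells with a TFAP2B UMI were set beside the 1587 without one. Of 5505 genes with at least 20 UMIs in each embryo, 0.654% were at least 2-fold higher and 1.24% at least 2-fold lower in the positive cells of each embryo. These shares include TFAP2B itself, which defined the sets. TFAP2A was at 81.3 and 63.8 CPM in positive cells and at 2.40 and 0.42 CPM in the others. PAX7, a dorsal midbrain factor, was at 92.8 and 96.0 CPM in positive cells against 26.4 and 30.7, or 3.32 ± 0.277-fold. In GABA group 3 the ratio of PAX7 was 3.69 ± 0.302-fold and in group 2 it was 3.65 ± 0.789-fold. PAX3, its close relative, was at 187 and 167 CPM against 69.5 and 88.7, which passed 2-fold in embryo 1 and not in embryo 2. SIX3 was at 1.27 and 6.68 CPM in positive cells against 26.4 and 19.3. OTX2, LMO1 and TAL1 were lower in positive cells of both embryos by less than 2-fold in at least 1 embryo, OTX2 with 139 and 142 CPM against 243 and 270. GATA3, at 63.5 and 73.5 against 67.9 and 69.4 CPM, had a ratio of 0.998 ± 0.0877, FOG2 one of 1.07 ± 0.103, GAD1 0.954 ± 0.0101 and LHX1 1.15 ± 0.0904. ST18 was lower in positive cells within GABA group 2, at 67.6 and 147 CPM against 253 and 217, and passed 2-fold in embryo 1 there and not in embryo 2. Both sets of cells held GATA3 and FOG2 with ratios near 1, while PAX7 was higher in the set with the AP-2 genes. The positive cells had more UMIs, with a median of 2442 against 2024, but not in GABA group 2 (2722 against 2854). The sets also differed in make-up, with 164, 347 and 427 positive and 223, 411 and 953 negative cells of GABA groups 1, 2 and 3. The part of depth and of make-up in these differences was not tested.

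**Figure D5:**
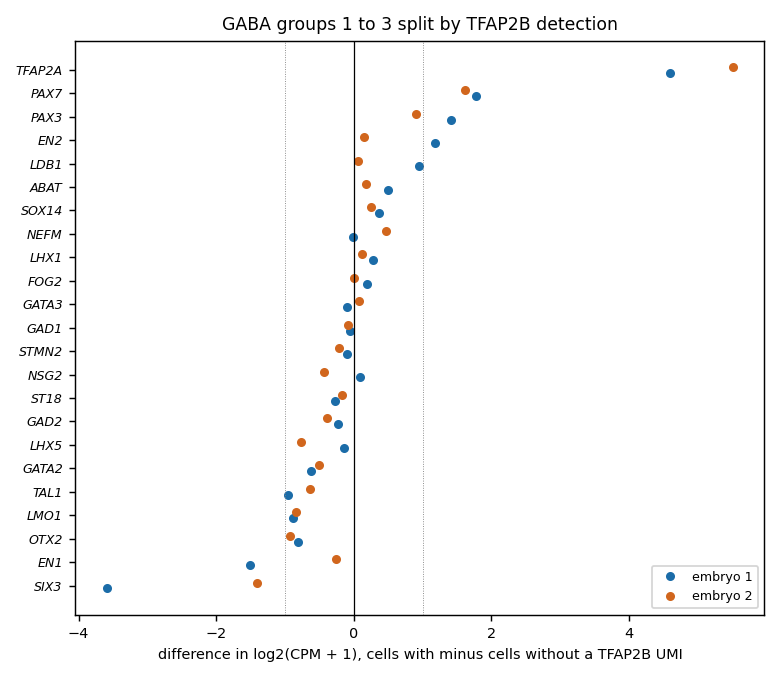
Difference in log2(CPM + 1) between cells with and cells without a TFAP2B UMI in GABA groups 1 to 3, for the other members and for the pathway, GABA and neuron genes with at least 20 UMIs in each embryo, 1 point per embryo and dotted lines at 2-fold. TFAP2A and PAX7 are more than 2-fold higher in both embryos, SIX3 is more than 2-fold lower, and GATA3, FOG2 and GAD1 lie near 0.

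The surrounding pathway was taken as a list of 24 genes for midbrain GABA specification, of which 18 were named in the annotation and 14 had at least 20 UMIs in each embryo. In the midbrain GABA class 9 of these 14 were at least 2-fold higher than in all other cells of each embryo, against 6.88% of all 10759 genes so compared. The list includes the markers that named the class, so this count was partly set by the naming. The 9 were the LIM homeobox genes LHX1 (621 and 564 CPM) and LHX5 (82.3 and 92.2 CPM), the patterning genes PAX3, PAX7, OTX2 and EN2, the neuron subtype factors SOX14 and TAL1, and the LIM-only gene LMO1. Their median difference on the log2(CPM + 1) scale over the 14 was 1.81, next to 0.26 over all genes compared. All 6 members also passed, GATA3 with 77.7 ± 24.1-fold, FOG2 with 29.4 ± 7.12-fold, GATA2 with 21.5 ± 11.8-fold, TFAP2A with 12.3 ± 5.15-fold, TFAP2B with 8.58 ± 2.37-fold and ST18 with 7.50 ± 2.28-fold, but they were chosen on these values. The haemoglobin gene HBB was at 232405 and 92922 CPM in all other cells of embryos 1 and 2, against 4253 and 2204 in the class. This lowers the CPM of other genes in the comparison cells and so raises the folds and shares given here. They were not computed without haemoglobin. TAL1, which partners GATA factors in midbrain GABA precursors, was at 0 and 1.12 CPM in precursor group 3 and at 26.6 and 19.2 CPM in GABA group 1.

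GABA group 1 was set beside GABA groups 2 to 4. ST18 was at 421 and 472 CPM against 110 and 107, a ratio of 4.12 ± 0.397, and GATA2 at 55.1 and 39.6 against 10.8 and 11.7, a ratio of 4.23 ± 1.21. TFAP2A had ratios of 2.37 and 1.92 and did not pass 2-fold in embryo 2. FOG2 had 0.591 and 0.501, and GATA3 0.728 and 0.883. Over all 5845 genes 0.616% were at least 2-fold higher and 13.7% at least 2-fold lower in each embryo, with a median of -0.49 on the log2(CPM + 1) scale. GATA2 and ST18 were among these few genes on the high side, but they were chosen with these values known. Of 12 pathway genes compared, 0 were at least 2-fold higher and 5 were at least 2-fold lower, LMO1, OTX2, PAX3, PAX7 and SOX14, with a median of -1.02. OTX2, PAX3 and PAX7 also chose the territory, and 2 of them passed there in GABA group 1 but 3 in groups 2 to 4. The count of 5 was thus partly set by that choice. LHX1 was at 573 and 566 CPM in GABA group 1, at 848 and 728 in group 2, at 295 and 254 in group 3 and at 1005 and 896 in group 4, so it lay within the range of the later groups. GAD2, at 283 and 314 against 1447 and 1527, was lower in GABA group 1, which follows from the ordering of the groups by GAD1 and GAD2.

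GABA group 1 also carried SHOX2 and EBF3, markers of the midbrain or thalamus excitatory class. SHOX2 was at 201 and 188 CPM there against 14.1 and 5.13 in the later GABA groups, and EBF3 at 133 and 134 against 37.3 and 33.9. Both were already counted in precursor group 3, SHOX2 at 76.8 ± 5.50 CPM and EBF3, above its level in GABA group 1, at 207 ± 38.8 CPM. In the midbrain or thalamus excitatory class SHOX2 was at 174 ± 21.0 CPM and EBF3 at 196 ± 5.62. The 8 markers of that class summed to 347 and 338 CPM in GABA group 1 and to 383 and 180 in group 2, where TCF7L2 made up 295 and 93.0 CPM. The defining marker SLC17A6, the vesicular glutamate transporter, was at 5.70 and 0 CPM in GABA group 1, and LHX9, BARHL2, POU4F1 and POU4F2 were at or below 2.55 CPM. Whether doublets or free RNA had a part in the SHOX2 and EBF3 counts was not tested. Of the 387 cells 12 were among those with the highest doublet scores, next to 157 of 2676 in the later GABA groups and 1262 of all 17735. HBB, a haemoglobin gene that stands here for free RNA, was at 3205 and 3727 CPM in GABA group 1, against 3396 to 5469 in the later groups of embryo 1 and 1380 to 1593 in those of embryo 2, and its part in the differences was not tested.

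GABA group 4 was set beside group 3. Of 4623 genes 0.389% were at least 2-fold higher and 1.64% at least 2-fold lower in each embryo. TFAP2B was at least 2-fold lower, with ratios of 0.059 and 0.174, while GATA2 and TFAP2A had too few UMIs to be compared. ST18 had ratios of 1.73 and 2.63, GATA3 1.30 and 1.80 and FOG2 1.43 and 1.12. LHX1, at 1005 and 896 CPM against 295 and 254, SOX14, at 38.6 and 49.2 against 18.1 and 16.9, and RELN, an extracellular guide of migrating neurons, at 505 and 551 against 164 and 177, were at least 2-fold higher in group 4. PAX7 and PAX3 did not pass 2-fold in both embryos, PAX7 with 41.6 and 53.9 CPM against 69.9 and 71.1.

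The relatives of the 6 genes differed in where they were counted. GATA4 and GATA5 had 0 UMIs and GATA6 had 2, and the names GATA1, FOG1, ZFPM1 and ZFPM2 are not in the annotation. ZFPM2 is the other name of FOG2, and a missing name does not show that a gene is absent. TFAP2D, whose model carries the number next to that of TFAP2B on the same chromosome (evm.model.chr4.823), was found in 816 of 1648 cells of the midbrain or thalamus excitatory class and in 19 of 3057 midbrain GABA cells. In the excitatory class 317 of the 429 TFAP2B-positive cells also had TFAP2D, and in the GABA class 5 of 977 had it. TFAP2B-positive cells thus often had TFAP2D in the glutamate class and seldom in the GABA class. TFAP2A was found in few cells of either class, 147 of 3057 midbrain GABA cells and 43 of 1648 excitatory cells. It therefore gives no pair particular to 1 class. Precursor group 3 held TFAP2D at 26.2 and 33.6 CPM, and GABA groups 1 to 4 at no more than 9.37. TFAP2C and TFAP2E were at or below 1.47 CPM in the GABA groups. MYT1, the founding member of the family of ST18, was at 61.2 and 53.8 CPM in precursor group 3, 79.7 and 81.7 in GABA group 1 and 164 and 157 in group 4, so it was highest in a later group than ST18. MYT1L, counted over 4 models, was at 11.4 and 16.6 CPM in GABA group 1 and 35.2 and 33.4 in group 2. Among the classes MYT1 was highest in the midbrain GABA class, at 109 ± 4.01 CPM next to 77.7 ± 0.964 in the forebrain GABA class. MYT1L was at 27.9 ± 0.489 and 32.9 ± 2.84 CPM in these 2 classes. PTF1A, PAX2 and PAX8, which mark GABA neuron lineages of the hindbrain, were nearly absent, with PAX2 and PAX8 at 0 UMIs in all 4 GABA groups and PTF1A at 3.80 and 0 CPM in GABA group 1. They were rare in the whole brain too, with 18 and 7 UMIs of PTF1A, 6 and 1 of PAX2 and 1 and 0 of PAX8, so their low counts do not settle the region. LHX1 and LHX5 of the same list were at 592 ± 39.7 and 87.2 ± 6.98 CPM in the midbrain GABA class, and LBX1 and CORL2 are not names in the annotation.

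TFAP2A, TFAP2B and ST18 were also counted outside both midbrain classes. In the unnamed cluster of 1184 cells TFAP2A was at 9.75 ± 0.663 CPM and TFAP2B at 270 ± 51.1. In a small granule neuron-like cluster of 95 cells at the finer division TFAP2A was at 62.9 and 55.2 CPM, above its mean in any GABA group, and TFAP2B at 616 and 758 CPM, with 0 UMIs of GATA2 and GATA3. TFAP2A there rested on 25 UMIs. ST18 was at 166 and 167 CPM in a forebrain GABA neuron-like cluster of 431 cells with DLX1 and DLX2, where GATA2, GATA3, FOG2 and TFAP2A each had at most 1 UMI per embryo.

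The genes most alike in pattern were found by Pearson's r of log2(CPM + 1) over the 18 clusters, which share library and depth, among 7908 genes with at least 100 UMIs in each embryo (7909 for GATA2, which itself had 74 UMIs in embryo 1). For GATA2 these were LHX1 (r = 0.841), GATA3 (0.840) and LHX5 (0.834), and for GATA3 LHX1 (0.932), LHX5 (0.928) and TFAP2A (0.866). For FOG2 they were IGSF21 (0.931), the unnamed model evm.model.chr6.833 (0.888) and GATA3 (0.861). TFAP2A and TFAP2B both had KLH35 first (0.915 and 0.916) and each other second (0.909), followed by LHX1 (0.904) for TFAP2A and SHD (0.882) for TFAP2B. ST18 was most like evm.model.chr13.175 (0.905), the pan-neuronal gene ELAVL3 (0.885) and its relative MYT1 (0.880). Between members r ran from 0.611 for GATA2 and ST18 to 0.909 for TFAP2A and TFAP2B.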

How the data were processed

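Single-cell RNA libraries of 2 tree shrew embryo brains were examined, and both samples were used as replicates of 1 group. The authors aligned reads with cellranger count (3.1.0) to the TS_2.0 assembly and deposited raw UMI counts per gene model and barcode, without normalization. The kept cells carried 38192755 and 35785697 UMIs. The barcodes in the tables equal the cell numbers given per embryo in the study's methods, while the total in its results is higher. The tables give no coordinates, and no sequence was used.

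Cells with at least 200 genes were kept and doublets were not removed. Counts were scaled to 10000 per cell and logged, and 2000 variable genes without the 6 members gave 20 principal components. A graph of 20 neighbours was divided with leidenalg 0.10.2 at a resolution of 0.5 and, more finely, 2.0. Naming a cluster took 3 or more markers, each detected in 10% or more of the cluster and 2-fold or more above the remaining cells, and ties stayed unnamed. Models of 1 name were summed. The 2-fold rule was applied to plain CPM of genes with at least 20 UMIs in each embryo. Differences and correlations on the log2(CPM + 1) scale had 1 added to CPM, and the log2 ratios of the closing section had nothing added. Named genes were the members, the genes of the family and pathway lists and the 3 genes most alike to each member. KLH35, IGSF21, SHOX2, EBF3, RELN, DLX1, DLX2, DLL3, the excitatory markers and genes of the closing section outside these lists were chosen after their values were seen, as was the rule for the territory. The members and lists were chosen with earlier results of these data known. The code of the fold rule was run on simulated counts with planted differences above 2-fold, and that of the likeness on counts with a planted shared pattern. These runs do not show how the fold rule behaves near 2-fold. Scrublet in scanpy 1.11.5 gave doublet scores. Alternatives are given in the closing section.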

Additional observations from a re-analysis of the deposited data

How the results depend on the processing

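Each embryo left out in turn gives the value of the other. The ranges were 16.2 to 20.8 CPM for GATA2, 68.7 to 76.6 for GATA3, 97.1 to 136 for FOG2, 22.3 to 28.4 for TFAP2A, 994 to 1145 for TFAP2B and 167 to 175 for ST18 in the midbrain GABA neuron-like class, and 9 to 11 pathway genes at least 2-fold higher. The class levels moved by more than 1 SD between embryos under 2 settings. With at least 1000 genes per cell TFAP2A was 31.8 CPM and ST18 198, and as a mean over single cells ST18 was 138. No level of GATA2, GATA3, FOG2 or TFAP2B moved so far under a resolution of 1.0, 30 components, the members among the variable genes, haemoglobin left out or the 1262 highest Scrublet scores left out, and the pathway count was 9 in all of these that apply and at 5 UMIs. Among alternatives added after the data were seen, cells with at least 1000 genes gave ratios of GABA group 1 to the later groups, on the log2 scale, of 0.80 for TFAP2A (1.09 in all cells) and 1.70 for ST18 (2.04), and no direction changed. No paired analysis was possible because there is 1 group of samples. Depth limits GATA2 and TFAP2A most, with 191 and 320 UMIs in all.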

Other observations

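Other genes followed the split of GABA groups 1 to 3 by TFAP2B. In both embryos cells with a TFAP2B UMI had more GABRG1, a subunit of the GABA-A receptor, at 83.9 and 134 CPM against 19.2 and 15.1, more KCTD15, by 7.61 ± 0.0346-fold, and more PPP2R2B, a regulatory subunit of a protein phosphatase, by 7.48 ± 1.42-fold. Cells without TFAP2B had more TCF7L2, a nuclear effector of Wnt signalling, at 225 and 111 CPM against 20.3 and 15.2 (counted in few cells, 48 of 758 in GABA group 2 and 54 of 1380 in group 3), more NTS, the precursor of neurotensin, at 58.3 and 68.9 against 5.08 and 7.29, and more NR2F2, a nuclear receptor, at 82.3 and 82.8 against 14.0 and 20.6. Of GABA groups 1 to 3, NTS was counted mainly in group 3, at 94.1 ± 7.01 CPM, next to 0.949 ± 1.34 in group 1 and 3.43 ± 0.704 in group 2. The part of group make-up in its difference was not tested. DMBX1, a homeobox gene of the midbrain, was at 20.8 and 19.3 CPM in cells without TFAP2B and had 0 UMIs in cells with it.

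In GABA group 1 the genes most above the later groups were SHOX2 and the neurofilament gene NEFM, at 780 and 895 CPM against 86.0 and 77.6. DLL3 was at 47.5 and 77.9 CPM against 6.49 and 11.7 and PROX1, a homeobox factor of neurogenesis, at 32.3 and 28.1 against 8.12 and 6.84.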
